A study of Homo sapiens with 6 samples.

Results

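The genes described here encode the enzymes that make serine from glycolysis and pass its carbon to folate: PHGDH, PSAT1, PSPH, SHMT1, SHMT2, MTHFD1, MTHFD1L, MTHFD2 and MTHFD2L. They were taken by symbol and are 9 of the 41768 genes in the table. RNA of pancreatic ductal adenocarcinoma (PDAC) cells, the common cancer of the pancreas, was sequenced after poly(A) selection in 6 libraries of 2 lines. The line named 90 in the labels had 1 library called NC and 2 called siALDOA, and the long-used human PDAC line PANC-1 had the same set. siALDOA is taken here as a small interfering RNA directed at ALDOA, the gene of the glycolytic enzyme aldolase A. The labels do not say what 90 and NC mean, or whether siALDOA 1 and 2 were different siRNAs or repeats. Separate cultures are not stated either, so the spread behind each p-value is that of these libraries alone and can be technical. No genotype, allele or other treatment is given for any group.

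As background, PHGDH takes the glycolytic intermediate 3-phosphoglycerate into serine synthesis, PSAT1 adds the amino group and PSPH removes the phosphate. SHMT1 in the cytosol and SHMT2 in mitochondria split serine into glycine and a one-carbon unit carried by tetrahydrofolate. The MTHFD enzymes interconvert the forms of that unit on either side of the mitochondrial membrane, and the cell uses it for purines, thymidylate and methylation. Aldolase works upstream of 3-phosphoglycerate in glycolysis.

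Values are FPKM as the authors deposited them, fragment numbers scaled by gene length in kilobases and by library depth in M (mega) fragments. They are per length, but the gene lengths used are not given, so levels of different genes can be compared only roughly. The low values showed 17.7 to 21.8 M fragments per library. For ALDOA, 90 NC had 726 FPKM and 90 siALDOA 1 and 2 had 262 and 318 FPKM, or 36.1% and 43.8% of NC. In PANC-1, NC had 906 FPKM and the siALDOA libraries had 501 and 462 FPKM, or 55.3% and 51.0% of NC. All 7 epithelial and ductal markers examined reached 1 FPKM in both lines (summed level 4867 to 6655 FPKM in 90 and 3421 to 4387 FPKM in PANC-1). The single markers differed between the lines, with 4 lower and 3 higher in PANC-1. Means in 90 and PANC-1 were 1155 and 8.39 FPKM for KRT7, and 41.8 and 1.69 FPKM for CDH1. They were 112 and 13.1 FPKM for EPCAM, and 2063 and 763 FPKM for KRT19. KRT8, KRT18 and SOX9 were the 3 with higher means in PANC-1. None of 5 leukocyte markers reached 1 FPKM in either line. Of 6 fibroblast markers, COL1A1 alone did (summed level of the list 1.31 to 1.77 FPKM in 90 and 10.5 to 14.4 FPKM in PANC-1), and of 3 endothelial markers CDH5 alone, in 90, while it was listed at 0 in PANC-1. The siALDOA libraries also differed from their NC library with the GC content of the gene, which bears on the siALDOA results given further on.

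The first step of serine synthesis was higher in 90, and the next steps were higher in PANC-1. PHGDH was 4.86-fold higher in 90, PSPH was 2.13-fold higher in PANC-1, and PSAT1 was near 0 in 90 and abundant in PANC-1. Among the folate enzymes, SHMT1 and SHMT2 were higher in 90 and MTHFD1L was higher in PANC-1. In the limma test of PANC-1 against 90 over 12592 genes, 3 members were called higher in PANC-1 and 3 lower, against 20.4% and 18.4% of all genes tested. In all, 6 of 9 members were called, against 38.8% of all genes, and 7 of 9 had an unadjusted p under 0.05, against 47.3%. The threshold for a call was 0.05 on the p-value adjusted by Benjamini-Hochberg over all genes. All 9 members passed the filter of a mean of 1 FPKM, PSAT1 only through PANC-1, so a difference of PSAT1 was bound to appear. Among genes with a mean of 1 FPKM or more in both lines, a restriction chosen after the values were seen, 5 of 8 members were called (2 higher, 3 lower), against 32.8% of 10794 genes, and the median log2 difference was -0.19, against 0.15. The 3 libraries of each line did not overlap for 7 of 9 members, against 54.1% of all tested genes. PANC-1 was the higher line for 3 of the 7 and the lower for 4, against 29% and 25.1% of all tested genes. Without PSAT1 these counts were 2 and 4 of 8.

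**Figure D1:**
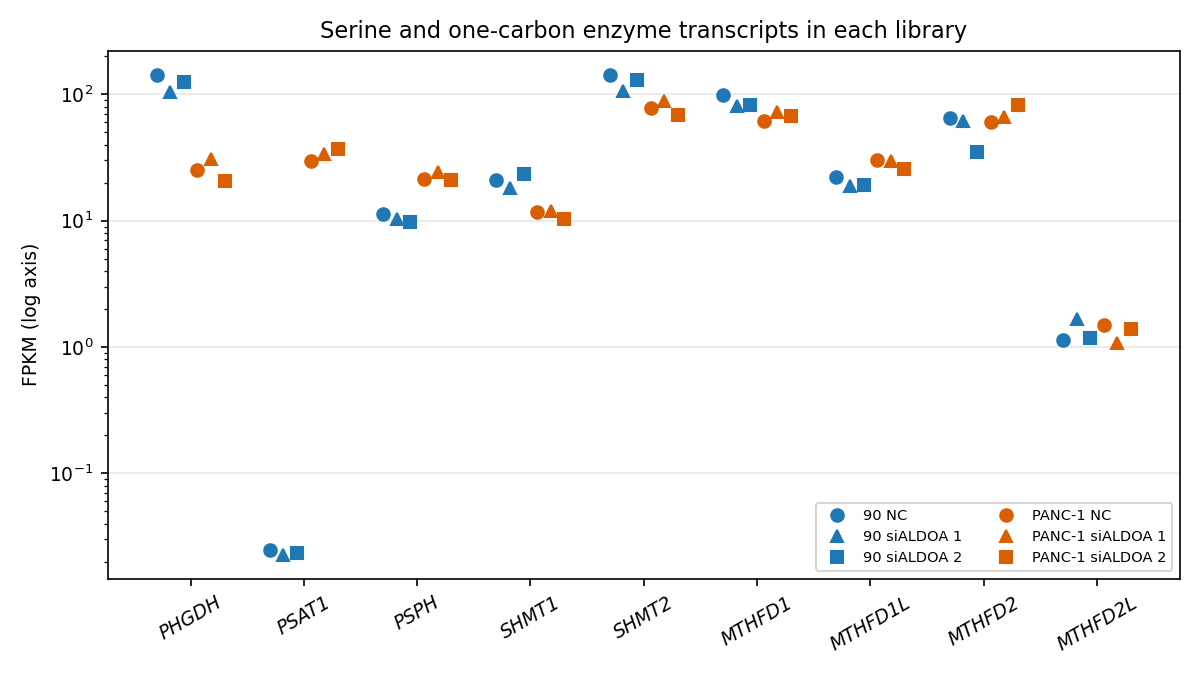
FPKM of each of the 9 genes (log axis) in the 3 libraries of 90 and the 3 of PANC-1, 1 point per library, with NC and siALDOA libraries marked. PSAT1 lies under 0.025 FPKM in all libraries of 90 and between 29.6 and 36.7 FPKM in PANC-1, and PHGDH lies between 104 and 142 FPKM in 90 and between 20.7 and 30.8 FPKM in PANC-1.

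PHGDH, the enzyme of the first and committed step, had 142 FPKM in 90 NC, 104 FPKM in 90 siALDOA 1 and 126 FPKM in 90 siALDOA 2. The NC library of PANC-1 had 25.1 FPKM, and siALDOA 1 and 2 of that line had 30.8 and 20.7 FPKM. The lowest library of 90 was above the highest of PANC-1. The means were 124 ± 19.3 and 25.5 ± 5.08 FPKM (SD, n = 3 each, NC and siALDOA libraries together, so not repeats of 1 condition). The log2 difference on the log2(FPKM + 1) scale was -2.24 (SE 0.201, 95% interval -2.76 to -1.73, limma adjusted p = 1.18e-03). For comparison, 90% of all tested genes had a line difference between -2.20 and 1.74. The gene lies at chr1:119648411-119744226 on the plus strand (hg38, GENCODE v29).

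PSAT1, the aminotransferase of the next step, was at 0.0249, 0.0227 and 0.0233 FPKM in the NC, siALDOA 1 and siALDOA 2 libraries of 90. In PANC-1 the same libraries were at 29.6, 33.8 and 36.7 FPKM. The low values fit exactly 1 fragment in each library of 90, and those of PANC-1 fit 1376, 1668 and 1559 fragments. The gene length this implies is 2264 bases, and the exons of PSAT1 in GENCODE v29 cover 2188. PSAT1 RNA was therefore at the level of single fragments in 90, in NC and siALDOA alike. The depth-corrected ratio of 4603 to 3 fragments was 1409, with an exact interval of 482 to 6833 that covers counting error only. On the log2(FPKM + 1) scale, which understates a change from near 0, the fitted difference was 5.06, and with a pseudocount of 0.1 it was 8.07. Both are descriptions, since PSAT1 entered the tested genes only through the line in which it is high. Of the 12592 genes tested, 107 were under 0.05 FPKM in every library of 90. Of these, 13 were at 10 FPKM or more in every library of PANC-1, and PSAT1, NRIP3 and WNT5B were the 3 at 25 FPKM or more in every library of PANC-1. Genes this low in 90 passed the filter only through PANC-1, and the cutoff of 25 FPKM lies under every PANC-1 value of PSAT1. The place of PSAT1 among the 3 was thus fixed by the cutoffs, and the count is a description. NRIP3 and WNT5B were found after the values were seen. PSAT1 lies at chr9:78297143-78330093 on the plus strand.

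Since PSAT1 showed the widest line difference of the members, the bases before its start are printed here from the RefSeq promoter table (GRCh38.p14). The starts in that table are those of RefSeq and differ from the GENCODE bounds printed for the genes. The window is the 250 bases at chr9:78296875-78297124, plus strand, and overlaps no GENCODE exon. Capitals mark the CCAAT box, searched as CCAAT and ATTGG, at 113, 83 and 52 bases before the start.
PSAT1: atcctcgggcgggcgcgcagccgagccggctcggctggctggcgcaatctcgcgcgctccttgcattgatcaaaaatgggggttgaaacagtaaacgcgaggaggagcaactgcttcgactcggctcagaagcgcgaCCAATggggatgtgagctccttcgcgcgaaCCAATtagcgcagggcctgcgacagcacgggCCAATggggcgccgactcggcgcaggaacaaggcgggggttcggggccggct
The window holds 30 CpG dinucleotides, against a median of 11 over all 35116 windows of that table, of which 87.6% held fewer. These windows are not limited to the tested genes, unlike the shares that follow. A CCAAT box on either strand was in the window of 6 of the 7 members with an entry, and in 41.4% of the 8688 tested genes with one. Of those genes 5.67% held 3 or more, as PSAT1 does. To show how the boxes of other members sit in their sequence, 1 site each is given with 10 bases on either side, on the strand of the gene and with the box in capitals. For PHGDH, SHMT1, MTHFD1 and MTHFD2 the window overlaps a GENCODE exon of the same gene, and for PHGDH it lies far inside the GENCODE bounds. The site of MTHFD1L is 193, 154 or 40 bases before 3 of its 4 RefSeq starts. The windows with the site at 193 and 154 bases overlap a GENCODE exon of MTHFD1L, and that with the site at 40 bases does not.
PHGDH, chr1:119711853-119711877, plus strand, 71 bases before the RefSeq start: gtatttccgtCCAATcaaaaggaga
SHMT1, chr17:18363612-18363636, minus strand, 76 bases before the RefSeq start: tgcgccgcagCCAATagcgcgggtg
MTHFD1, chr14:64388127-64388151, plus strand, 216 bases before the RefSeq start: tttctttccgCCAATcatttccgcc
MTHFD1L, chr6:150866283-150866307, plus strand: gtgggcatctCCAATgggcgcctag
MTHFD2, chr2:74198531-74198555, plus strand, 74 bases before the RefSeq start: gcggcagggaCCAATgggtggcgga
The letters TGATGNAA, searched on both strands as the composite element that ATF4 is known to bind, were in a window of 1 of the 7 members, MTHFD1L, and in 2.08% of the tested genes. The E-box CACGTG was in 2 of the 7, MTHFD1 and MTHFD1L, and in 11.5% of the tested genes. These matches describe the letters only. SHMT2 and PSPH are named without a promoter.

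PSPH, the phosphatase of the last step, was at 11.4, 10.3 and 9.80 FPKM in 90 (NC, siALDOA 1, siALDOA 2) and at 21.3, 24.4 and 21.2 FPKM in PANC-1. Each library of PANC-1 was above each of 90. The means were 10.5 ± 0.823 and 22.3 ± 1.85 FPKM (SD, n = 3 each, NC and siALDOA libraries together). The log2 difference was 1.02 (SE 0.145, 95% interval 0.65 to 1.39, limma adjusted p = 4.96e-03). The pseudogene PSPHP1, which carries a near copy of part of the sequence, was at 0 to 0.0115 FPKM in 90 and at 1.03 to 1.57 FPKM in PANC-1. Reads could be split between PSPH and this copy, so the value of PSPH is uncertain to that extent. The calls of PHGDH and PSPH held in all 16 alternative settings of the test.

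The genes beside these 3 were looked up after the values were seen, 6 coding genes on each side. Around PSPH at chr7:56011051-56051604 (minus strand), 8 neighbours were tested, of which 4 were called higher in PANC-1 and 0 lower, against 20.4% and 18.4% of all tested genes. These were LANCL2 (log2 difference 1.58), MRPS17 (1.43), VOPP1 (1.23) and CHCHD2 (0.93). EGFR, a growth factor receptor gene and the farthest of the 8 from PSPH, was at -0.03. Around PSAT1 3 neighbours were tested and 0 were called: GNAQ at 0.99, CEP78 at 0.81 and TLE1 at -0.36. Around PHGDH 5 were tested, with ZNF697 called higher (1.05, though it passed the filter only through PANC-1) and WARS2 called lower (-0.79).

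**Figure D2:**
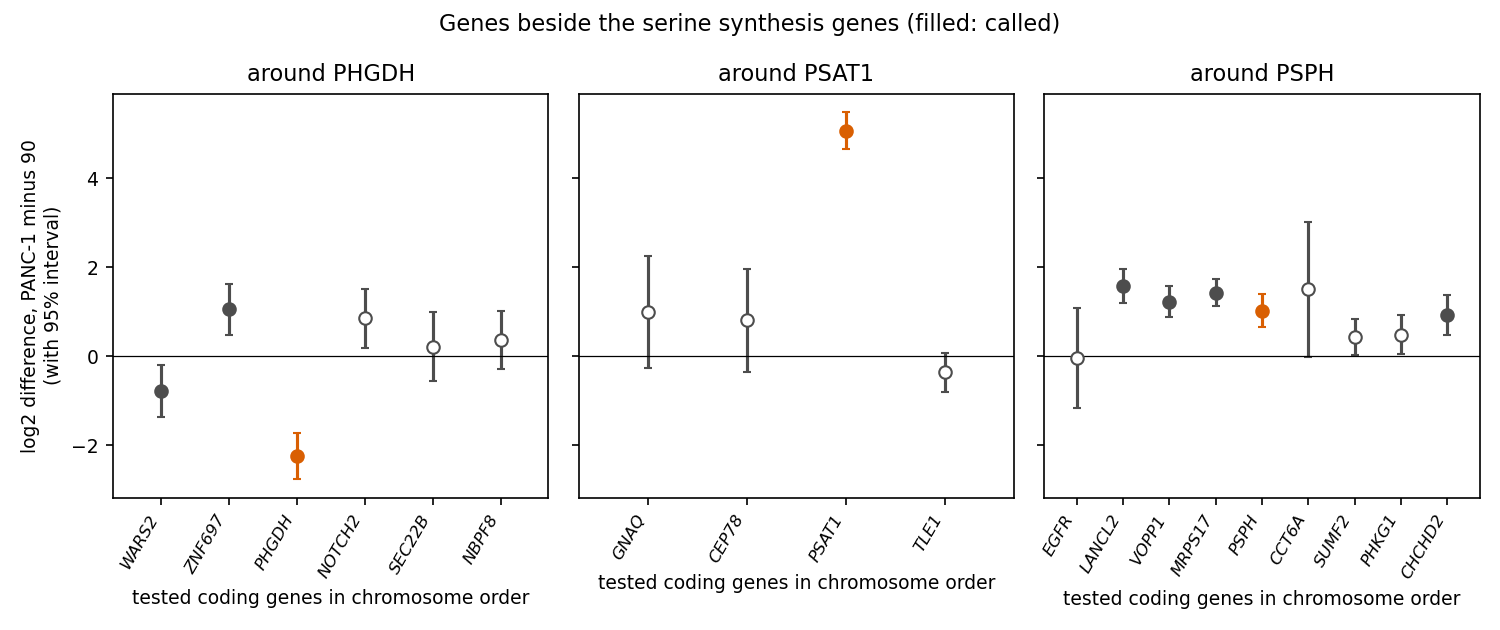
The log2 difference of PANC-1 minus 90 with its 95% interval for PHGDH, PSAT1 and PSPH (orange) and the tested coding genes beside them (grey), in chromosome order, with filled points for called genes. PSAT1 at 5.06 and PHGDH at -2.24 stand apart from the genes beside them, while 4 of the 8 tested genes beside PSPH are called higher as PSPH is.

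SHMT1, the cytosolic serine hydroxymethyltransferase, was at 21.1, 18.3 and 23.3 FPKM in 90 and at 11.7, 12.03 and 10.3 FPKM in PANC-1 (NC, siALDOA 1, siALDOA 2). SHMT2, its mitochondrial counterpart, was at 143, 106 and 131 FPKM in 90 and at 78.6, 88.1 and 68.4 FPKM in PANC-1. For both genes every library of 90 was above every library of PANC-1. SHMT1 was 1.84-fold and SHMT2 1.62-fold higher in 90. The log2 differences were -0.82 for SHMT1 (SE 0.159, limma adjusted p = 0.0137) and -0.68 for SHMT2 (SE 0.165, limma adjusted p = 0.0273). SHMT1 lost its call without 90 NC, PANC-1 NC or PANC-1 siALDOA 2 (limma adjusted p = 0.104, 0.0941 and 0.0618), and with the siALDOA libraries alone (0.101). SHMT2 lost its call without 90 NC, 90 siALDOA 2, PANC-1 NC or PANC-1 siALDOA 2 (limma adjusted p = 0.170, 0.0880, 0.168 and 0.1005) and after scaling by median ratios (0.0766), and with the siALDOA libraries alone (0.169). On leaving out 90 NC or PANC-1 NC the line difference rests on the siALDOA libraries alone. These settings and the one with siALDOA libraries only thus share 1 estimate (-0.83 for SHMT1, -0.60 for SHMT2) and are not separate losses. SHMT1 lies at chr17:18327860-18363563 on the minus strand and SHMT2 at chr12:57229327-57234935 on the plus strand.

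MTHFD1, the cytosolic enzyme that carries out 3 reactions on folate-bound carbon, was at 98.7, 81.3 and 82.2 FPKM in 90 and at 61.1, 72.2 and 67.8 FPKM in PANC-1. The lines did not overlap, but the log2 difference of -0.38 (SE 0.140, 95% interval -0.74 to -0.02) was not called (limma adjusted p = 0.0946), and it was -0.22 without either NC library. MTHFD1L, the mitochondrial synthetase that releases formate, was at 22.1, 18.9 and 19.3 FPKM in 90 and at 30.3, 29.9 and 25.6 FPKM in PANC-1. It was 1.42-fold higher in PANC-1 with no overlap (log2 difference 0.49, SE 0.127, limma adjusted p = 0.0352). That call was lost in 11 of 16 alternative settings. It was lost on leaving out any 1 library (limma adjusted p = 0.0883 to 0.179) and after median-ratio scaling (0.338) or quantile normalization (0.132). It was also lost with the siALDOA libraries alone (0.179), without siALDOA 1 of both lines (0.169) and with a replicate block (0.124). Of the settings that lost the call of MTHFD1L, those without 90 NC, without PANC-1 NC and with the siALDOA libraries alone share 1 estimate (0.51). They are not separate losses. MTHFD1 lies at chr14:64388031-64463457 and MTHFD1L at chr6:150865549-151101887, both on the plus strand.

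MTHFD2, the mitochondrial dehydrogenase and cyclohydrolase found in many tumours, was at 65.4, 61.5 and 35.2 FPKM in 90 and at 60.7, 66.3 and 82.1 FPKM in PANC-1. The lines overlapped, and the log2 difference of 0.40 had an interval of -0.34 to 1.14 (limma adjusted p = 0.345). It was 0.10 without 90 siALDOA 2, 0.24 without PANC-1 siALDOA 2 and 0.65 without either NC library, was 0.27 after median-ratio scaling and 0.25 after a GC correction, and was called in none of these. Its lowest value, in 90 siALDOA 2, was 53.8% of NC. The relative MTHFD2L was at 1.14, 1.67 and 1.18 FPKM in 90 and at 1.49, 1.08 and 1.39 FPKM in PANC-1, near the filter on low values in both lines. Its libraries overlapped and its difference was 0.00 (95% interval -0.49 to 0.48, limma adjusted p = 0.992). MTHFD2 lies at chr2:74198562-74217565 and MTHFD2L at chr4:74114174-74303099, both on the plus strand. The pseudogene MTHFD2P7 was at 0.162 to 0.399 FPKM over the 6 libraries.

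**Figure D3:**
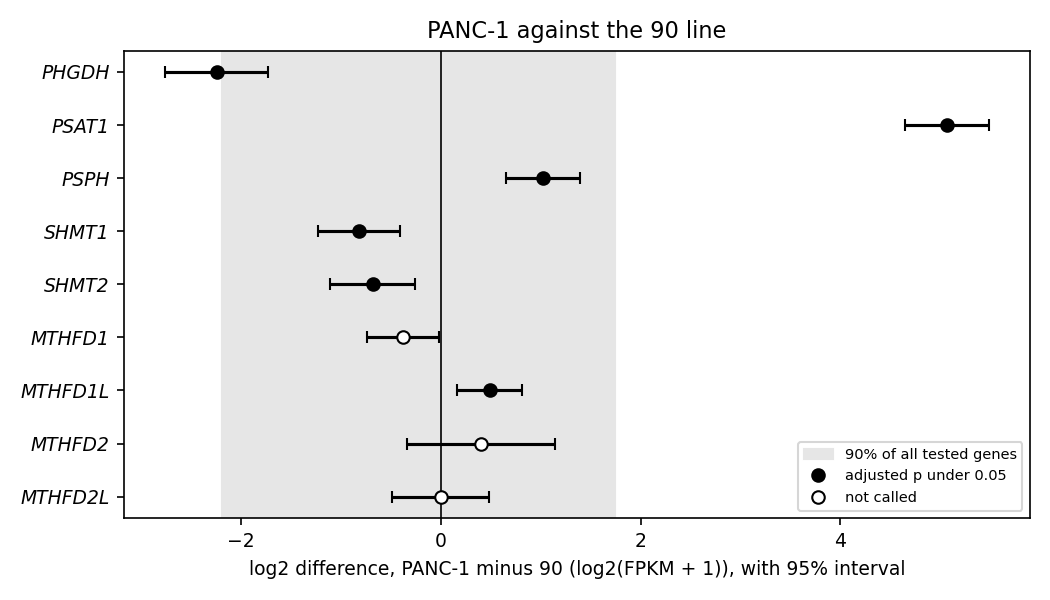
The log2 difference of PANC-1 minus 90 for the 9 genes with its 95% interval, from the fit over all 12592 genes, with called genes filled and a grey band from -2.20 to 1.74 that holds 90% of all tested genes. PSAT1 (5.06) and PHGDH (-2.24) lie farthest from 0, and the intervals of MTHFD2 and MTHFD2L include 0.

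The order of the levels, which rests on gene lengths that are not given, differed between the lines. In 90 SHMT2 (126.8 ± 19.0 FPKM, SD, n = 3, NC and siALDOA together) and PHGDH stood highest with overlapping ranges. They were followed by MTHFD1, MTHFD2, the overlapping pair SHMT1 and MTHFD1L, then PSPH, MTHFD2L and PSAT1. In PANC-1 SHMT2 (78.4 ± 9.87 FPKM), MTHFD2 (69.7 ± 11.1 FPKM) and MTHFD1 (67.0 ± 5.59 FPKM) stood highest, and neighbours in that order overlapped. PSAT1, MTHFD1L, PHGDH and PSPH followed at means of 33.4 to 22.3 FPKM, again with each overlapping the next, and SHMT1 and MTHFD2L came last. The serine synthesis enzymes thus lay within a narrow range of each other in PANC-1, and were spread from the top to the bottom of the order in 90.

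Ratios between related enzymes in the same library were compared over the 3 libraries of each line, NC and siALDOA together. A two-sided exact permutation test was used, for which 0.1 is the smallest p that 3 against 3 can give. The size of a ratio rests on gene lengths that are not given. The mitochondrial SHMT2 exceeded the cytosolic SHMT1 by 6.78, 5.81 and 5.64 times in 90 and by 6.70, 7.32 and 6.62 times in PANC-1 (exact p = 0.3), with overlapping ranges. MTHFD1L was at 0.224, 0.233 and 0.234 of the level of MTHFD1 in 90 and at 0.496, 0.414 and 0.378 of it in PANC-1. These ranges did not overlap (log2 difference 0.89, exact p = 0.1, and 0.3 after adjustment over the 3 ratios). MTHFD2 exceeded MTHFD2L by 57.5, 36.7 and 29.7 times in 90 and by 40.8, 61.2 and 59.1 times in PANC-1 (exact p = 0.2, adjusted 0.3).

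**Figure D4:**
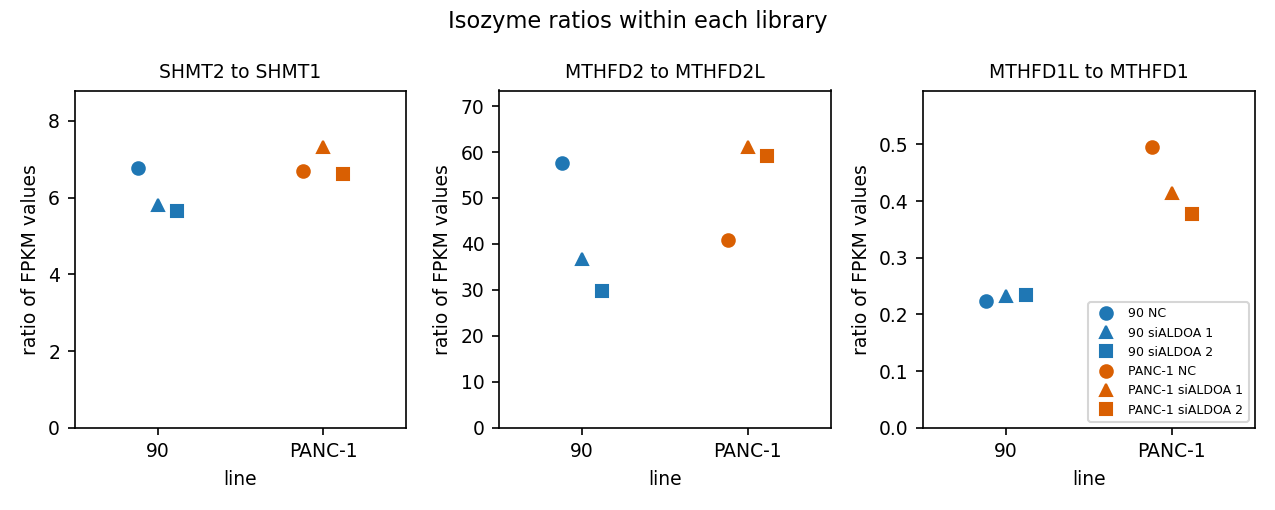
FPKM ratio of each pair of related enzymes in each library, with axes from 0 and 1 point per library. Of the 3 pairs, MTHFD1L to MTHFD1 is the one in which the lines do not overlap, at 0.224 to 0.234 in 90 and 0.378 to 0.496 in PANC-1.

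The genes around these enzymes were read from 7 lists of the same metabolism. Of 36 genes 31 were tested. Of these, 4 were called higher in PANC-1 and 7 lower, against 20.4% and 18.4% of all tested genes. Together this was 35.5% against 38.8%, near the share of all tested genes, so the calls given by list are descriptions only. Of the users of one-carbon units, 2 of 5 were called, both higher in PANC-1: TYMS, which makes thymidylate (48.9 against 121 FPKM, log2 difference 1.28, SE 0.145), and ATIC, which closes the purine ring (70.0 against 141 FPKM, 0.997, SE 0.125). Of serine transport, 2 of 6 were called, both lower: SFXN3, related to the mitochondrial serine carrier SFXN1 (-1.13), and the neutral amino acid transporter SLC1A4 (-0.93). SLC46A1, the proton-coupled folate transporter, was the 1 of 5 genes of folate uptake and retention that was called (-1.51). Of 5 other folate enzymes, ALDH1L1, which oxidizes formyl-folate to CO2, was lower (-2.49, 4.82 against 0.0325 FPKM) and MTHFS was higher (0.63). GLDC of the glycine cleavage system was higher (1.33), CTH of transsulfuration was lower (-1.71), and both genes tested for serine breakdown and racemization, SDSL (-0.85) and SRR (-0.93), were lower. ALDH1L1, GLDC and CTH passed the filter through 1 line only. Without them 8 of 28 genes were called, 28.6% against 32.8% of the genes at 1 FPKM or more in both lines.

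ATF4, a transcription factor known to induce serine synthesis genes, was itself lower in PANC-1, at 187 FPKM in 90 and 78.0 FPKM in PANC-1 on average (log2 difference -1.25, SE 0.133, limma adjusted p = 1.97e-03). Of 9 genes in the list of ATF4 and its targets 8 were tested, and 3 were called lower and 1 higher, against 18.4% and 20.4% of all tested genes. The lower ones were ATF4, CHAC1 (-1.40) and CEBPB (-0.84), and the higher one was DDIT3 (1.13).

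With siALDOA, 0 of the 9 members were called over both lines, in 90, in PANC-1 or in the difference between the lines, by limma. The background for each of these 4 comparisons was 0% of 12592 genes. ALDOA, the target itself, went uncalled in all 4 as well. With the lines combined, limma put ALDOA at -1.12 on the log2 scale (SE 0.160, unadjusted p = 9.07e-04). The estimates within a line were -1.33 in 90 and -0.91 in PANC-1. The absence of a call thus cannot separate a member that did not respond from 1 that did. In the 4 comparisons, 0 of 9 members each had a limma unadjusted p under 0.05, against 0.341%, 0.262%, 0.167% and 0.191% of all tested genes. These shares lie far below what a threshold of 0.05 would pass with no effect at all. A count of 0 of 9 was therefore nearly fixed in advance and says nothing about the members. Since PSAT1 in 90 was 1 fragment in each library, the other 8 members are counted by library. In 90, 7 of 8 lay below NC in siALDOA 1 and 6 of 8 in siALDOA 2, with median log2 changes of -0.21 and -0.18. Of all tested genes 52.1% and 49.2% lay below NC in these libraries, with medians of -0.02 and 0.00. In PANC-1, 6 of 8 lay above NC in siALDOA 1 (median 0.14), and 6 of 8 lay below it in siALDOA 2 (median -0.11). Of all tested genes 52.6% lay above NC in the former and 46.5% below it in the latter, with medians of 0.02 and 0.03. The member medians of the PANC-1 libraries thus had opposite signs, and those of 90 the same sign.

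Each siALDOA library was set against the 1 NC library of its line. In 90, PHGDH was at 73.0% and 88.8% of NC in siALDOA 1 and 2, while in PANC-1 it was at 123% and 82.5%. Both siALDOA libraries of 90 were below NC for 6 of the 8 members, against 22.5% of all tested genes: PHGDH, PSPH, SHMT2, MTHFD1, MTHFD1L and MTHFD2. Both changes rest on the same NC library, so a high NC value alone puts both below it. This share of all tested genes, and those for the patterns that follow, were not matched for GC content, with which the changes moved. The part of the NC library and of GC content in these counts was not tested. Both siALDOA libraries of PANC-1 were above NC for 3 of the 9 members, PSAT1, MTHFD1 and MTHFD2, against 22.9%. PSAT1 was at 114% and 124% of NC there, a change that was not called. MTHFD1L alone was below NC in all 4 siALDOA libraries (background 5.82%), with a log2 change of -0.16 (SE 0.135, limma adjusted p = 1), or -0.10 as TPM. No member was above NC in all 4 (background 3.39%).

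MTHFD1 and MTHFD2 were below NC in both siALDOA libraries of 90 and above it in both of PANC-1, a pattern of 7.3% of all tested genes, and MTHFD2L had the reverse (2.61%). MTHFD2 was at 94.1% and 53.8% of NC in 90 and at 109% and 135% in PANC-1. Its effects were -0.48 and 0.28, and their difference of 0.76 had a 95% interval of -0.87 to 2.39 (limma unadjusted p = 0.268, adjusted p = 1). Without 90 siALDOA 2 the effect in 90 was -0.09 and the difference 0.36, and without 90 siALDOA 1 they were -0.87 and 1.15. The effect in PANC-1 was 0.43 without its siALDOA 1 and 0.13 without its siALDOA 2. MTHFD1 was at 82.4% and 83.3% of NC in 90 and at 118% and 111% in PANC-1, and the difference of 0.46 had an interval of -0.36 to 1.28 (limma unadjusted p = 0.195, adjusted p = 1). These intervals are wide, and a change in either direction was not resolved with 1 NC library per line.

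Over all tested genes, the change from NC moved with GC content, taken from the longest GENCODE transcript and split into 8 classes of near-equal size. In the lowest class (25% to 39.6% GC), which holds MTHFD2L, the medians were 1.40 and 0.12 in 90 siALDOA 1 and 2 and -1.02 and 0.56 in PANC-1 siALDOA 1 and 2. In the next class, which holds MTHFD2 (41.4% GC) and PSAT1 (42.3% GC), they were 0.80, -0.14, -0.53 and 0.47. In the class of 49.6% to 53.4%, which holds PHGDH, PSPH, SHMT1 and MTHFD1L, they were -0.13, -0.01, 0.13 and -0.04. MTHFD2 itself changed by -0.09, -0.87, 0.13 and 0.43 in the same order. Genes changed at least 2-fold from NC numbered 2022, 219, 1428 and 512 in the same order. After a correction for GC content 0 of the 9 members were called in any siALDOA comparison. The effects of MTHFD2 were then -0.87 in 90 and 0.36 in PANC-1 with a difference of 1.23, larger than without the correction, and those of MTHFD1 were -0.23 and 0.12 with a difference of 0.35. For MTHFD1L over both lines the value was -0.16 with and without it. For the other members the part of GC content was not tested.

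**Figure D5:**
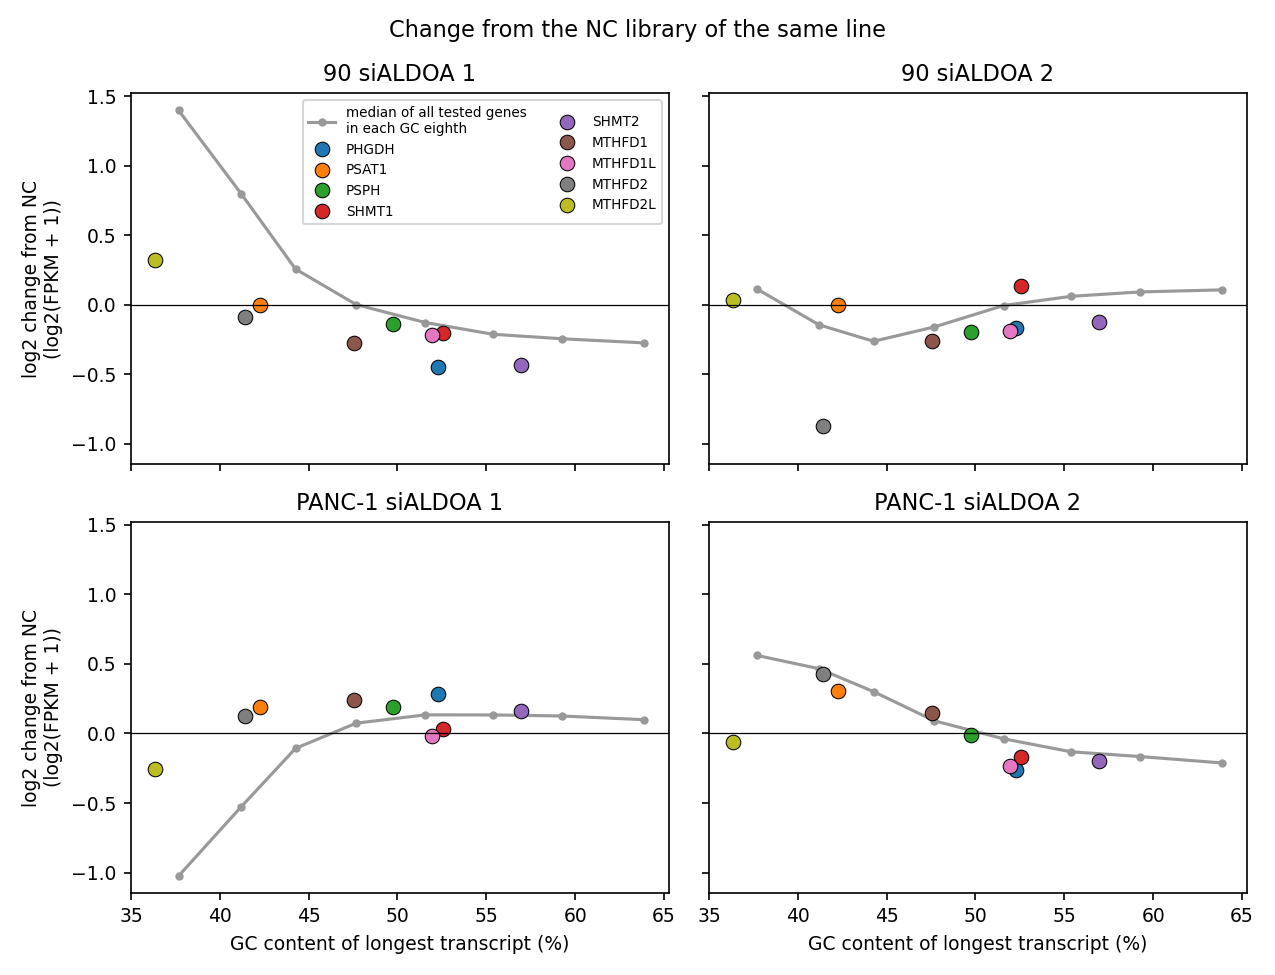
Change of each of the 9 genes from the NC library of the same line (log2(FPKM + 1)) against the GC content of its longest transcript, 1 panel per siALDOA library, with the grey line joining the medians of all tested genes by GC class. The grey line runs from 1.40 in the lowest class of 90 siALDOA 1 and from -1.02 in that of PANC-1 siALDOA 1, while the members lie between -0.87 and 0.43.

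The related lists gave 0 calls for siALDOA over both lines by limma. Genes with the smallest p of their list were TYMS (log2 change -0.32, SE 0.154, unadjusted p = 0.0905), GLDC (0.23), SLC7A11 (0.63), SLC19A1 (-0.19), AHCY (-0.17), SLC38A1 (0.56) and SRR (-0.04). All had an adjusted p of 1. The 2 largest changes, of SLC7A11 (SE 0.539) and SLC38A1 (SE 0.869), were not even over the libraries. SLC38A1 was at 11.3, 53.3 and 8.48 FPKM in 90 (NC, siALDOA 1, siALDOA 2) and at 12.9, 7.80 and 29.8 FPKM in PANC-1. Its 2 siALDOA libraries thus lay on opposite sides of NC in each line. SLC7A11 was at 1.40, 7.39 and 1.74 FPKM in 90 and at 0.342, 0.233 and 1.07 FPKM in PANC-1.

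The genes whose pattern over the 6 libraries was most like that of each member were named by Pearson's r of log2(FPKM + 1), as a description of points that share the line difference and the GC trend. PHGDH was closest to ZNF212 and VILL (r = 0.9995 and 0.9994), and PSPH to CTPS1, which makes the nucleotide CTP, and UBE2G2 (0.9993 and 0.9992). PSAT1 was closest to RIBC2 and RP11-1223D19.1 (0.999997 and 0.999996), both listed at 0 in 90. SHMT1 was closest to TMEM9 (0.9998) and EML2 (0.9995), SHMT2 to SLC12A4 (0.9996) and TNFAIP1 (0.9992), and MTHFD1L to TBXAS1 (0.9989) and SAP18 (0.9989). The values were lower for MTHFD2, closest to UBE3C (0.994) and RBM28 (0.991), for MTHFD1, closest to TNFRSF10D (0.991) and CLUHP3 (0.987), and for MTHFD2L, closest to FAM92A1 (0.991) and SNORA1 (0.988).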

How the data were processed

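Poly(A)-selected RNA of 6 libraries was measured, and the authors deposited 1 FPKM value per gene and library. HISAT2, featureCounts and hg38 are named per the submitters' processing notes. Not given in the sources used here: versions, settings, use of strand and gene lengths. Of 41769 rows, 1 lacked a gene name and was left out, and 4 shared a symbol. Depth was read from small RNA genes, whose FPKM times RefSeq length fell on whole multiples (up to 8, tolerance 0.03) of a step in 96.1% to 97.1% of values. The same steps gave the fragments of PSAT1. FPKM is no count, so no count test was run.

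Values were tested as log2(FPKM + 1), which understates changes of low genes, in the 12592 genes averaging 1 FPKM or more. A limma fit (R 4.3.3, limma 3.58.1, intensity trend) with terms for line and siALDOA gave the line and overall siALDOA effects. A fit of the 4 group means gave effects within a line, on the assumption that a lone NC library varies as siALDOA libraries do. p-values were adjusted by Benjamini-Hochberg over all genes. Exact permutation tests used SciPy 1.17.1. The fits were tested on simulated data. Alternatives were another pseudocount, no filter, other scalings, a GC correction, a replicate block and leaving out libraries.

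Named genes are the members, ALDOA, per list up to 4 called genes with the largest difference (or the smallest p), the 2 genes most like each member, and pseudogenes of members. A gene that this rule takes in is not reported here. Members and lists were chosen with earlier results of these data known. GC content was found for 90.6% of tested genes and all 9 members, and a RefSeq promoter for 7 of the 9.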

Additional observations from a re-analysis of the deposited data

How the results depend on the processing

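PHGDH and PSPH kept their direction and call between the lines in all 16 alternatives. The 6 called members, PSAT1 among them, became 3 with siALDOA libraries only, and 3 to 5 on leaving out 1 library (3 without either NC library or PANC-1 siALDOA 2, 4 without 90 siALDOA 2, 5 without either siALDOA 1). The 4882 called genes became 2423 with siALDOA libraries only and 2422 to 4110 on leaving out 1 library. Leaving out either NC library gave the same line estimates as the siALDOA libraries only, so these settings are 1 contrast. Median-ratio scaling moved the median line difference of all genes from 0.13 to 0.02 and left 4 members called. MTHFD2L, at 0.00 between the lines, changed sign as TPM (0.0066), after quantile normalization (0.0194), without siALDOA 1 of both lines (0.17, chosen after seeing the data) and on leaving out 1 library (-0.11 to 0.11). For siALDOA, 17 genes were called over both lines without both siALDOA 1 libraries. With no filter on level 38 were called in 90 and 49 in PANC-1. None of these calls was a member, and the cause was not tested. The replicate numbers of the siALDOA libraries were not shown to pair them, since deviations of same-numbered libraries correlated at -0.86 over 12592 genes. A replicate block left 3 members and 3258 genes called, with an adjusted p of 0.0589 for SHMT1, 0.0855 for SHMT2 and 0.124 for MTHFD1L by limma. Crossed pairs, chosen after seeing the data, gave 6 members and 7594 genes. The design limits every siALDOA value to 1 NC library per line. PSAT1 in 90 is limited by depth, and MTHFD2L lies near the filter on low values and in the lowest GC class.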
